A study of Mus musculus with 18 samples.

Results

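Colorectal tumours of Il1f9-/- (knockout, KO) and Il1f9+/+ (wild-type, WT) C57BL/6 mice were compared by bulk sequencing of poly(A) RNA. The libraries were chosen by their labels as tumours of the Il1f9 line, which gave 4 of the 18 libraries in the series, 2 KO and 2 WT. Both groups had gone through the AOM/DSS model, in which the carcinogen azoxymethane (AOM) and the colon irritant dextran sulfate sodium (DSS) give tumours of the colon. Ages, the way the Il1f9 allele was made, and whether a library holds 1 tumour or several are not stated in the labels. The series also holds tumours of KO and WT mice of an Il1f5 line, again 2 and 2, and colon tissue of the Il1f9 line in DSS colitis, 2 KO and 2 WT, and these are used below for comparison. Libraries are called KO 1, KO 2, WT 1 and WT 2 after the replicate numbers in the labels. The labels do not say that the numbers pair animals. The main test, edgeR, took the spread between libraries from all tumour libraries of both lines, unless another fit is named. For tumours against colitis it took the spread from all 18 libraries. Its p-values therefore do not rest on the spread of KO 1, KO 2, WT 1 and WT 2 alone.

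Il1f9, also called Il36g, encodes IL-36 gamma, a cytokine of the IL-1 family that epithelial cells and myeloid cells make. It binds the receptor encoded by Il1rl2, which pairs with the accessory chain encoded by Il1rap and signals through MyD88 to NF-kB. In barrier tissues the pathway is known for inducing neutrophil chemokines, antimicrobial proteins and cytokines of the IL-17 and IL-23 circuit. The protein encoded by Il1f5, also called Il36rn, is the antagonist of the same receptor.

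Library totals were 18650610 and 19165589 counts in KO tumours, and 18967589 and 19572633 counts in WT tumours. Mitochondrial genes took 2.01 to 3.35% of the counts of these 4 libraries, and the 10 most abundant genes took 5.06 to 6.07%. Epithelial markers were high in all 4, with Epcam at 2655 and 2083 CPM in KO tumours, against 2357 and 2331 CPM in WT tumours. CPM, the usual counts per unit of library size, were scaled here with TMM, a scaling that takes most genes as unchanged between libraries. Xist had 0 or 1 counts in each of the 4 libraries, and 4 Y-linked genes together had 3257 to 4683 counts, so the groups did not differ in this mark of sex.

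The targeted gene followed the labels. Il1f9 (chromosome 2, positions 24186476 to 24193568) had 2 counts in KO 1 and 0 in KO 2, against 1652 counts in WT 1 and 752 in WT 2. In CPM this is 0.119 and 0, against 101 and 42.2. The level was 1201-fold lower in KO tumours than in WT tumours over the summed counts, with a 95% exact interval for counting error of 332 to 9921. The 0 in KO 2 allows up to 3 counts, which is 0.157 CPM. By edgeR's quasi-likelihood test Il1f9 fell, with a log2 fold change of -10.10 ± 0.79 (SE, n = 2 and 2) and an adjusted p = 0.0136. That fitted size depends on how counts near 0 are treated.

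Across all genes, few differences passed the test, and they were large. Of 17859 genes tested in a fit of all 8 tumour libraries, 1 rose (0.0056% of those tested) and 2 fell (0.0112%) in KO tumours at an adjusted p under 0.05. The genes were Krt84, Camk2b and Il1f9 itself. At an unadjusted p under 0.05, 741 genes (4.15%) were higher and 812 (4.55%) lower in KO tumours. A DESeq2 Wald test on the same genes called 79 higher (0.442%) and 79 lower (0.442%), and it called all 3 of the edgeR genes. These shares are of all 17859 genes, although DESeq2 gave some of them no adjusted p. The authors' deposited table has 27 genes higher (0.109%) and 43 lower (0.174%) of 24665 genes with an adjusted p, and 59 of those 70 were among the 158 that the DESeq2 test called. After Il1f9, the largest falls among those 70 were in Ctrb1, Cela2a, Amy2a3 and Cel. Ctrb1 had 0 and 0 counts in KO tumours, against 24 and 105 in WT tumours. Cela2a had 0 and 0 counts, against 20 and 56. The source of these reads in WT tumours was not tested. A fit of the 4 libraries alone called 0 genes in edgeR, where Il1f9 had an adjusted p = 0.479 and both Krt84 and Camk2b had an adjusted p = 0.0926. Leaving out KO 1 gave 79 calls, KO 2 gave 97, WT 1 gave 4 and WT 2 gave 8. Camk2b and Il1f9 were called in all 4 of these fits.

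**Figure D1:**
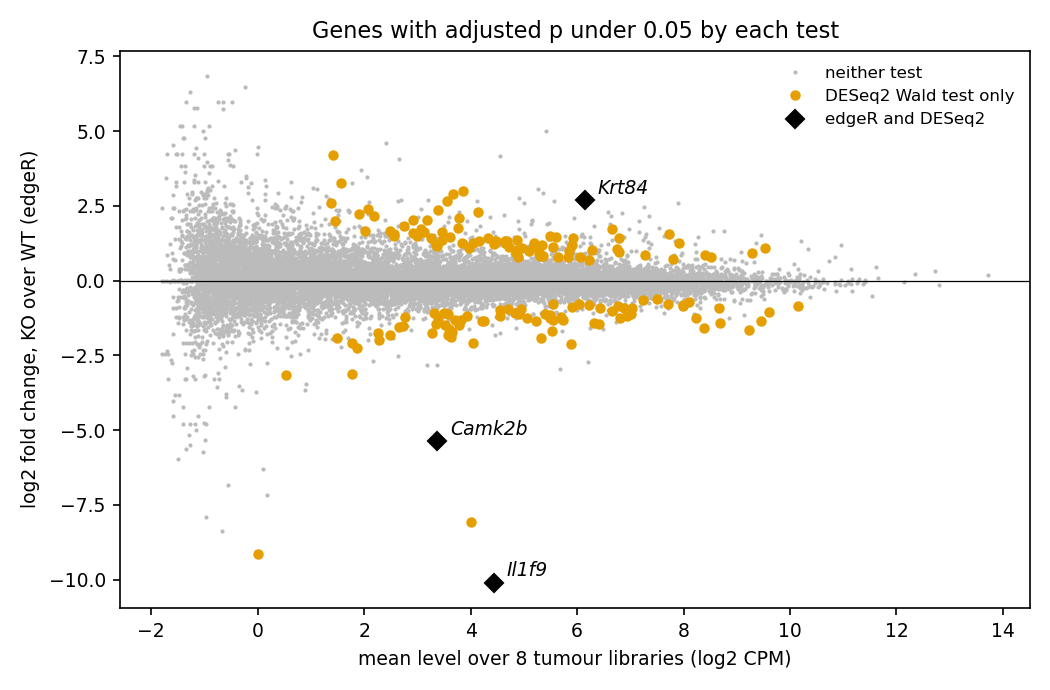
Log2 fold change of KO over WT tumours from edgeR (vertical axis) against the mean level over the 8 tumour libraries in log2 CPM (horizontal axis), 1 point a gene. Black diamonds are the 3 genes called by edgeR and also by DESeq2, orange circles those called by DESeq2 alone and grey points the rest. Krt84 lies at 2.70, Camk2b at -5.36 and Il1f9 at -10.10.

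Camk2b, which encodes the beta subunit of calcium/calmodulin-dependent protein kinase II, was nearly lost from KO tumours. The gene (chromosome 11, positions 5969644 to 6066362) had 3 and 5 counts in KO tumours, against 158 and 181 counts in WT tumours. Its level was 0.233 ± 0.0764 CPM in KO tumours and 9.90 ± 0.366 CPM in WT tumours (SD, n = 2 each). It fell by 5.36 ± 0.38 (SE) on the log2 scale, with an adjusted p = 0.00241 by edgeR. Both KO libraries lay far below both WT libraries, which were close to each other. The other subunit genes of this kinase, named after their values were seen, did not pass the test. Camk2d, the most abundant per length among them, had 4.73 and 4.75 FPKM in KO tumours, against 3.50 and 3.17 FPKM in WT tumours, where FPKM are the authors' values per length and depth. Camk2g had 2.44 and 2.75 FPKM in KO tumours, against 2.76 and 3.02 FPKM in WT tumours. Camk2a had 0.345 and 0.351 FPKM in KO tumours, against 0.434 and 0.504 FPKM in WT tumours. On the same scale Camk2b had 0.0176 and 0.0287 FPKM in KO tumours, against 0.936 and 0.983 FPKM in WT tumours. Per length it was thus below Camk2d and Camk2g in WT tumours as well.

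Krt84, which encodes a type II keratin known from hair and tongue, was the gene that rose. Located on chromosome 15 at positions 101525026 to 101532820, it had 109 and 114 CPM in KO tumours, against 14.0 and 20.4 CPM in WT tumours. The log2 fold change was 2.70 ± 0.23 (SE, n = 2 and 2), with an adjusted p = 0.00664 by edgeR. Without WT 1 the adjusted p was 0.0502, and the log2 fold change 2.45. The simple-epithelial keratin Krt8, part of the check of the tissue, had 10449 and 10871 CPM in KO tumours, against 9520 and 7490 CPM in WT tumours.

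The next genes by p, Nox1 and Ccnd2, passed in edgeR only at an adjusted p under 0.10, and both were called by DESeq2. Nox1, the superoxide-producing NADPH oxidase of colon epithelium, had 30.9 and 35.1 CPM in KO tumours, against 183 and 103 CPM in WT tumours. Its log2 fold change was -2.11 ± 0.25 with adjusted p = 0.0618 by edgeR and 2.84e-11 by DESeq2. Ccnd2, which encodes cyclin D2 of the G1 phase, had 321 and 284 CPM in KO tumours, against 121 and 128 CPM in WT tumours. Its log2 fold change was 1.28 ± 0.17 with adjusted p = 0.0917 by edgeR and 9.7e-09 by DESeq2. The log2 fold change of Ccnd2 was 1.18 without KO 1, 1.36 without KO 2, 1.24 without WT 1 and 1.31 without WT 2. In the fit of the 4 libraries alone its adjusted p was 0.479 by edgeR. In tumours of the Il1f5 line Ccnd2 had 279 and 227 CPM under the KO label, against 261 and 305 CPM under the WT label. All of these lay above both WT libraries of the Il1f9 line. Gbp2b, an interferon-inducible guanylate-binding protein gene, had 4.23 and 10.9 CPM in KO tumours, against 0.427 and 0.393 CPM in WT tumours, with adjusted p = 0.156 by edgeR and 3.58e-06 by DESeq2. It has close relatives in sequence, so its counts are uncertain. All 3 genes were named after their values were seen.

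**Figure D2:**
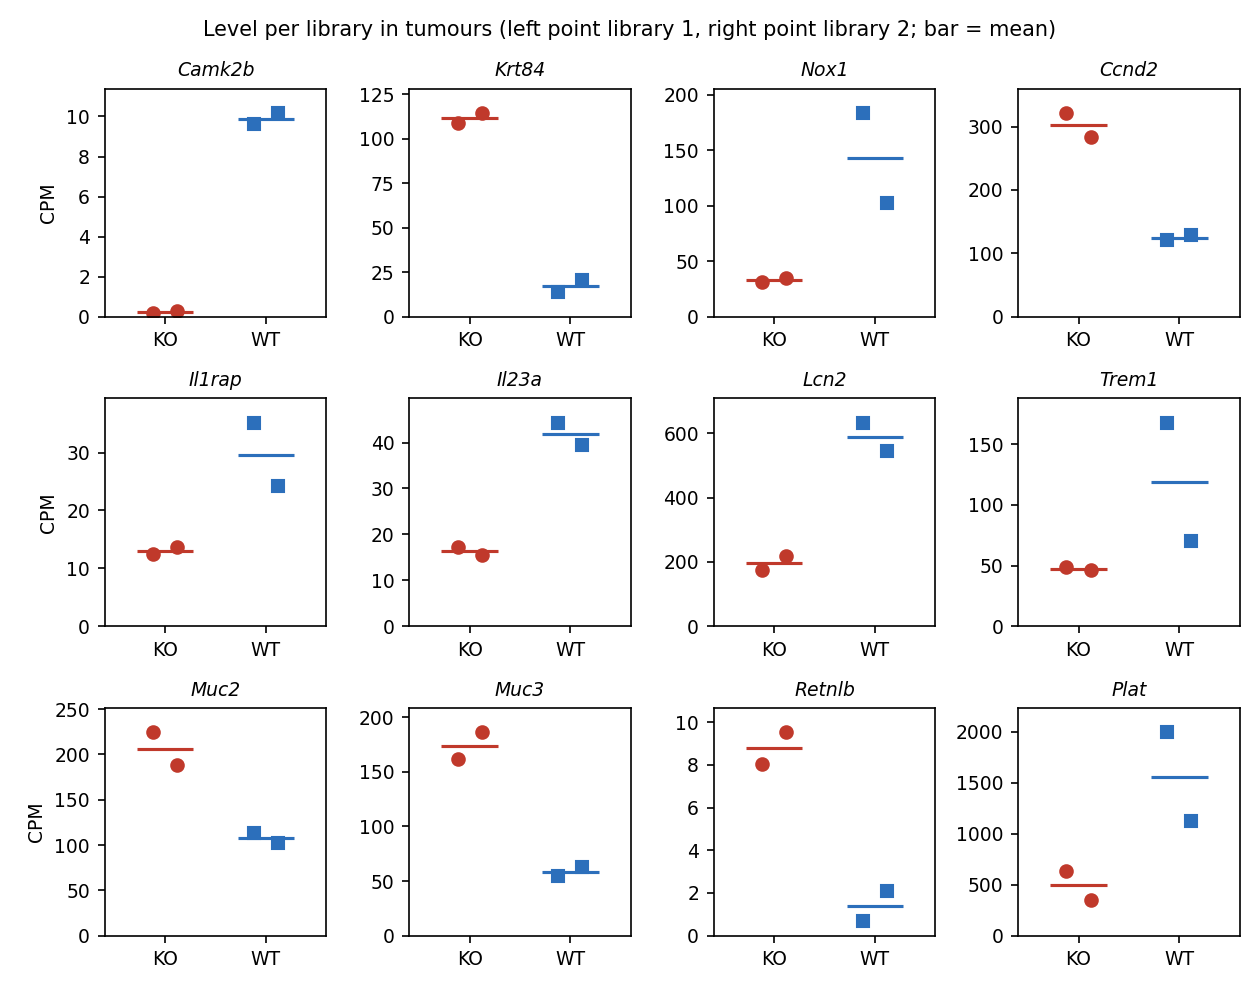
Level of 12 genes in CPM (vertical axes, linear and starting at 0) in the KO libraries, red circles, and the WT libraries, blue squares, with library 1 left of library 2 and the mean as a bar. In each panel both KO points lie on the same side of both WT points, and the WT points of Trem1 and Nox1 are far apart.

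The rest of the IL-36 pathway was measured next. Of 8 members of the pathway list that could be tested, 1 was called, Il1f9 itself. Il1rap, the accessory receptor chain, had 12.4 and 13.7 CPM in KO tumours, against 35.1 and 24.2 CPM in WT tumours. In FPKM this is 0.981 and 1.10, against 2.74 and 1.88. Its adjusted p was 0.348 by edgeR and 0.0124 by DESeq2, with a log2 fold change of -1.18 ± 0.24. The receptor gene Il1rl2 had 0.307 and 0.531 FPKM in KO tumours, against 0.643 and 0.771 FPKM in WT tumours. Il1f6, which encodes IL-36 alpha, had 2.25 and 1.72 FPKM in KO tumours, against 4.35 and 4.32 FPKM in WT tumours. Il1f8, which encodes IL-36 beta, overlapped between the groups, with 2.86 and 1.08 FPKM in KO tumours, against 1.69 and 3.05 FPKM in WT tumours. In WT tumours Il1f9 was the most abundant of the agonist genes per length, at 54.2 and 22.6 FPKM. Ctss, which encodes cathepsin S, a protease that activates IL-36 gamma, had 227 and 334 CPM in KO tumours, against 190 and 204 CPM in WT tumours, with an edgeR adjusted p = 0.531. Il1f5 had 0 counts in all 4 libraries, each of which allows up to 3 counts.

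Of the 37 gene lists examined, 36 had no member called by edgeR. The lists are therefore described by their medians and by how many members had KO and WT libraries that did not overlap. Over all genes tested, 2595 (14.5%) were higher and 3496 (19.6%) lower in both KO libraries than in both WT libraries, and the median log2 fold change was -0.02. In whole tumour tissue, fewer cells of a type and less RNA per cell cannot be told apart.

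Genes that IL-36 is known to induce in epithelium had lower values in KO tumours. The median log2 fold change of 16 such genes was -1.11. Of these, 8 were lower in both KO libraries than in both WT libraries, 0 were higher, and 4 were called lower by DESeq2 where edgeR called 0. Il23a, the p19 subunit of IL-23, had 17.2 and 15.6 CPM in KO tumours, against 44.3 and 39.6 CPM in WT tumours, with a log2 fold change of -1.36 ± 0.20 and adjusted p = 0.147 by edgeR and 4.77e-05 by DESeq2. Lcn2, an iron-sequestering antimicrobial protein, had 175 and 220 CPM in KO tumours, against 632 and 544 CPM in WT tumours (edgeR adjusted p = 0.426, DESeq2 adjusted p = 0.00368). For both genes the KO libraries lay well below the WT libraries, and the libraries of a group were close. The neutrophil chemokine Cxcl5 had 732 and 992 CPM in KO tumours, against 2003 and 1598 CPM in WT tumours (edgeR adjusted p = 0.365). Cxcl2, another neutrophil chemokine, had 459 and 389 CPM in KO tumours, against 1699 and 552 CPM in WT tumours, so that its distance rested largely on WT 1. The list's median was -0.47 without WT 1.

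Neutrophil markers also had a negative median. S100a8 and S100a9 belong both to this list and to the list of IL-36 response genes. The median of 20 genes was -1.06, with 8 lower in both KO libraries and 0 higher, and their summed level was 1341 and 2057 CPM in KO tumours, against 5119 and 2260 CPM in WT tumours. WT 1 stood above the other 3 libraries, and without it the median was -0.22. Trem1, an activating receptor of neutrophils and monocytes, had 48.6 and 45.9 CPM in KO tumours, against 168 and 70.6 CPM in WT tumours (edgeR adjusted p = 0.411). Mmp9, a gelatinase of neutrophil granules, had 90.3 and 90.5 CPM in KO tumours, against 214 and 130 CPM in WT tumours (edgeR adjusted p = 0.388). Inflammatory cytokines had a median of -1.01 over 16 genes, with 7 lower in both KO libraries, and a median of -0.33 without WT 1. Their summed level overlapped between the groups, at 924 and 1771 CPM in KO tumours, against 3226 and 1253 CPM in WT tumours. Among these cytokines Osm, of the IL-6 family, had 55.2 and 52.6 CPM in KO tumours, against 184 and 79.1 CPM in WT tumours (edgeR adjusted p = 0.411). Il17a was low throughout, at 1.67 and 1.72 CPM in KO tumours, against 9.33 and 3.76 CPM in WT tumours (edgeR adjusted p = 0.368).

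Several matrix and mast cell genes also had lower values in KO tumours, and edgeR called no member of either list. Plat, the tissue plasminogen activator, had 635 and 352 CPM in KO tumours, against 1994 and 1121 CPM in WT tumours, with a log2 fold change of -1.66 ± 0.36 and adjusted p = 0.348 by edgeR and 0.00013 by DESeq2. Of 22 matrix proteases and inhibitors, 9 were lower in both KO libraries and 0 higher, with a median of -0.49, or -0.07 without KO 1. Mmp8 and Mmp9 belong both to this list and to the neutrophil markers. Of 9 mast cell markers, 6 were lower in both KO libraries and 1, Cma1, was higher, with a median of -0.67, and DESeq2 called 2 of them lower. The mucosal mast cell protease Mcpt1 had 67.2 and 54.2 CPM in KO tumours, against 122 and 152 CPM in WT tumours (edgeR adjusted p = 0.348). Its neighbour Mcpt2 had 38.6 and 34.8 CPM in KO tumours, against 85.8 and 110 CPM in WT tumours (edgeR adjusted p = 0.412). Mcpt1 and Mcpt2 are close relatives in sequence, and the counting may have divided reads between them. Haemoglobin and other erythrocyte genes summed to 15.1 and 121 CPM in KO tumours, against 673 and 277 CPM in WT tumours. All 5 of these genes were lower in both KO libraries. The part of blood in the neutrophil values was not tested.

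Goblet cell genes ran the other way. Of 14 markers, 11 were higher in both KO libraries than in both WT libraries and 0 were lower, with a median log2 fold change of 0.70, and DESeq2 called 4 of them where edgeR called 0. Muc2, the secreted gel-forming mucin, had 224 and 188 CPM in KO tumours, against 113 and 102 CPM in WT tumours, with a log2 fold change of 0.94 ± 0.26 and adjusted p = 0.416 by edgeR and 0.0293 by DESeq2. Atoh1, the transcription factor of the secretory lineage, had 8.95 and 10.8 CPM in KO tumours, against 4.15 and 4.43 CPM in WT tumours (edgeR adjusted p = 0.348). For both genes the KO libraries lay above the WT libraries, as for 14.5% of all genes tested. The goblet cell genes named here were picked by their p, so their separation is a description. Retnlb, a goblet cell antimicrobial protein, had 8.05 and 9.53 CPM in KO tumours, against 0.671 and 2.08 CPM in WT tumours (edgeR adjusted p = 0.369, DESeq2 adjusted p = 0.000246). Spink4 had 453 and 447 CPM in KO tumours, against 265 and 256 CPM in WT tumours (edgeR adjusted p = 0.395).

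Absorptive colonocyte markers had a median of 0.63 over 23 genes, and 11 were higher in both KO libraries. KO 1 was the higher of the KO libraries, and without it the median was 0.26. Muc3, a membrane mucin of the brush border, had 162 and 186 CPM in KO tumours, against 54.3 and 63.0 CPM in WT tumours, with a log2 fold change of 1.57 ± 0.31 and adjusted p = 0.348 by edgeR and 6.22e-05 by DESeq2. Aqp4, a water channel, had 33.2 and 31.9 CPM in KO tumours, against 9.58 and 14.2 CPM in WT tumours (edgeR adjusted p = 0.462). Scnn1a, the alpha subunit of the epithelial sodium channel, had 111 and 60.8 CPM in KO tumours, against 54.6 and 38.2 CPM in WT tumours (edgeR adjusted p = 0.458). In tumours of the Il1f5 line Muc3 had 230 and 211 CPM under the KO label, against 251 and 531 CPM under the WT label. Aqp4 had 44.4 and 76.9 CPM there, against 54.0 and 122 CPM. Scnn1a had 47.1 and 49.1 CPM, against 58.1 and 69.2 CPM, which lay within its range in the Il1f9 line. General epithelial markers had a median of 0.22, and their summed level was 26175 and 25571 CPM in KO tumours, against 25072 and 20166 CPM in WT tumours.

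**Figure D3:**
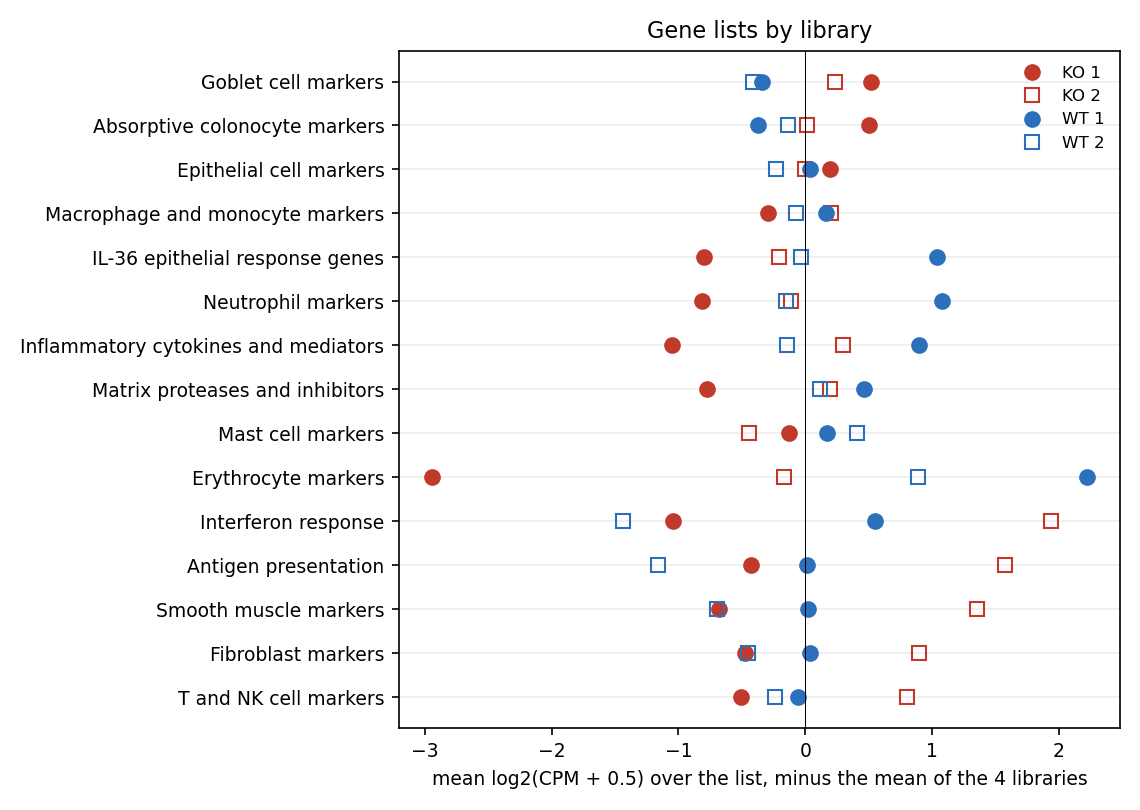
Mean log2(CPM + 0.5) of each gene list in each library, minus the mean of the 4 libraries (horizontal axis); circles are library 1 and squares library 2, red for KO and blue for WT. Goblet cell markers lie higher in both KO libraries and erythrocyte markers lower, while interferon response, antigen presentation and smooth muscle markers are highest in KO 2 and overlap between the groups.

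The KO libraries were not much alike. KO 1 and KO 2 correlated across the 17859 genes at a Pearson r = 0.968 and a Spearman rho of 0.968 in log2(CPM + 0.5), against 0.987 and 0.986 for WT 1 and WT 2. These are correlations across genes, which are not independent of each other. Between the KO libraries 1785 genes (9.99%) differed by over 2-fold, against 638 (3.57%) between the WT libraries. In tumours of the Il1f5 line the share was 2.73% between the KO libraries and 2.66% between the WT libraries. These closer pairs also enter the spread that the main edgeR fit used. Each KO library was closer to each WT library than to the other KO library, with 6.10 to 7.66% of genes over 2-fold apart in the 4 KO and WT pairs. The standard deviation of the log2 ratio was 0.679 between the KO libraries, 0.537 to 0.615 in the 4 mixed pairs and 0.438 between the WT libraries. With 2 libraries a group these are descriptions without a test.

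**Figure D4:**
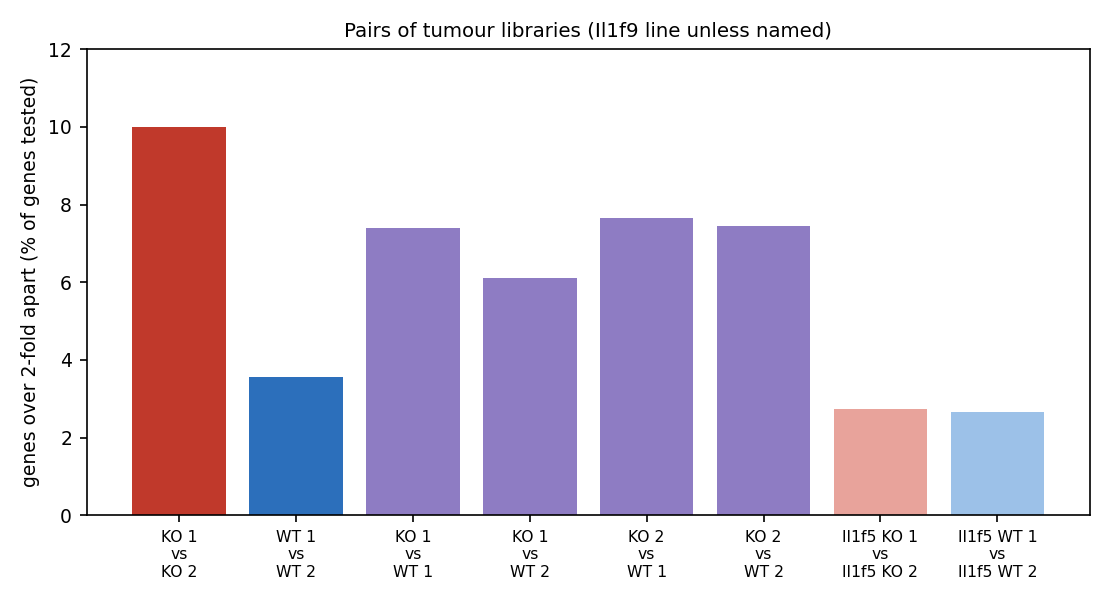
Share of the 17859 genes tested that differed by over 2-fold in CPM (with 0.5 added) between the libraries of a pair. The KO pair of the Il1f9 line is highest at 9.99%, above the 4 pairs of a KO and a WT library (6.10 to 7.66%) and the 3 other pairs within a group (2.66 to 3.57%).

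KO 2 stood above KO 1 in genes of the interferon response. Of 25 such genes, 24 were over 2-fold higher in KO 2 and 0 in KO 1, where over all genes 6.56% were over 2-fold higher in KO 2 and 3.44% in KO 1. The median log2 ratio of KO 1 over KO 2 was -2.78. The genes in the next sentences were those farthest apart between the KO libraries, so their distance is a description. Cxcl10, a chemokine for T cells, had 7.93 CPM in KO 1 and 330 CPM in KO 2, against 108 CPM in WT 1 and 7.69 CPM in WT 2. Cxcl9, its close relative, had 21.5 and 636 CPM in KO tumours, against 241 and 18.6 CPM in WT tumours. The immunity-related GTPases and guanylate-binding proteins, which act on vacuoles that hold microbes, had the same pattern. Iigp1 had 12.3 and 798 CPM in KO tumours, against 132 and 16.2 CPM in WT tumours, and Gbp4 had 12.5 and 323 CPM, against 80.3 and 13.5 CPM. Tgtp1 had 4.23 and 330 CPM in KO tumours, against 131 and 13.1 CPM in WT tumours, and its near-identical neighbour Tgtp2 may share reads with it. The WT libraries also differed, with a median ratio of WT 1 over WT 2 of 1.77 for the list, so the order of the 4 libraries of the list's summed level was KO 2, WT 1, KO 1 and WT 2 lowest. In the WT pair 22 of the 25 genes were over 2-fold higher in WT 1, against 2.31% of all genes, and 1.27% of all genes were over 2-fold higher in WT 2. None of the 25 genes of this list, which does not hold Gbp2b, had groups that did not overlap, and the median log2 fold change of KO over WT was 1.34 with all 4 libraries and -0.66 without KO 2.

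Antigen presentation and stromal genes followed KO 2 as well. Of 16 antigen presentation genes, 15 were over 2-fold higher in KO 2 than in KO 1. The WT libraries differed here too, with 11 of the 16 over 2-fold higher in WT 1, against 2.31% of all genes. The list's median log2 fold change of KO over WT was 1.39 with all 4 libraries and 0.04 without KO 2. Cd74, the invariant chain of MHC class II, had 442 and 1571 CPM in KO tumours, against 469 and 230 CPM in WT tumours. Of 15 smooth muscle markers, 10 were over 2-fold higher in KO 2. Des, which encodes desmin, had 7.10 and 173 CPM in KO tumours, against 19.8 and 3.76 CPM in WT tumours, and Actg2, the enteric smooth muscle actin, had 7.99 and 186 CPM, against 22.7 and 7.97 CPM. Both were named after their values were seen. The smooth muscle median of KO over WT was 1.19 with all libraries and -0.66 without KO 2. Likewise 13 of 15 fibroblast markers, 12 of 18 T and NK cell markers and 9 of 14 endothelial markers were over 2-fold higher in KO 2 than in KO 1.

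KO 1 in turn stood above every other library in alpha-defensins, the antimicrobial peptides that Paneth cells of the small intestine secrete. Of 18 genes whose symbols begin with Defa, a group formed after the values were seen, all 18 were over 2-fold higher in KO 1 than in KO 2. Their summed level was 6481 and 273 CPM in KO tumours, against 820 and 858 CPM in WT tumours. Defa30 had 1485 and 28.1 CPM in KO tumours, against 119 and 130 CPM in WT tumours. Defa22 had 936 and 24.9 CPM in KO tumours, against 115 and 100 CPM in WT tumours. Thus KO 1 lay above and KO 2 below the WT libraries. For Defa30 the log2 fold change of KO over WT was -2.16 without KO 1 and 3.58 without KO 2, and both of these edgeR fits called it. Members of this family are so alike in sequence that the counts of a single gene are uncertain.

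**Figure D5:**
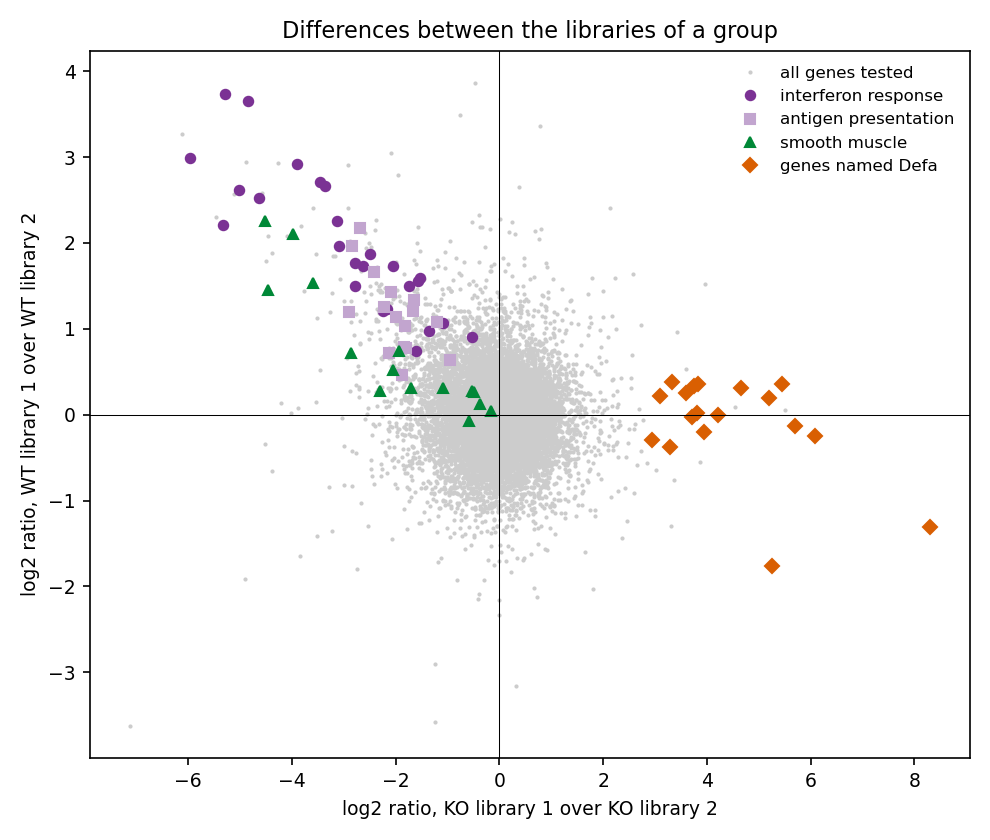
Log2 ratio of KO 1 over KO 2 (horizontal axis) and of WT 1 over WT 2 (vertical axis) from CPM with 0.5 added, 1 point a gene. Interferon response and antigen presentation genes spread to the upper left, high in KO 2 and in WT 1, smooth muscle genes spread to the left, high in KO 2, and the 18 genes named Defa lie at the right, high in KO 1.

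Whether the KO effect in Il1f9 tumours differed from that in Il1f5 tumours was tested as a difference between the lines, which share no library. Il1f5 itself goes against the labels there, with 211 and 102 counts in the tumour libraries labelled Il1f5 KO, against 0 and 0 in those labelled Il1f5 WT. In colitis, libraries labelled Il1f5 KO had 36, 43 and 45 counts, and those labelled Il1f5 WT had 0. The WT libraries of the Il1f9 line also had 0 Il1f5 counts, in tumours and in colitis. Why reads of Il1f5 appear under its KO label was not tested. Each difference is therefore given with the Il1f5 labels as they stand and with them turned, a fit chosen after seeing the data. As labelled, the difference was called higher for 8 genes (0.0448%) and lower for 6 (0.0336%) of 17859. With the labels turned it was called higher for 3 and lower for 3, and 3 genes were called both ways, Camk2b, Il1f9 and Trp53. For Il1f9 a difference was set by the design, in which Il1f9 is knocked out in its own line only.

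For Camk2b the direction of the Il1f5 labels made little difference. Its difference was -5.30 ± 0.46 on the log2 scale as labelled (edgeR adjusted p = 0.00823) and -5.43 ± 0.46 with the labels turned (edgeR adjusted p = 0.00439). The libraries labelled Il1f5 KO had 14.9 and 15.1 CPM of Camk2b, against 18.9 and 12.5 CPM in those labelled Il1f5 WT, so these groups overlapped.

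For the other genes named here, apart from Il1f9, the sign or the call depended on the labels. Krt84 had 105 and 149 CPM in libraries labelled Il1f5 KO, against 27.4 and 29.5 CPM in those labelled Il1f5 WT. Its difference was 0.54 ± 0.31 as labelled (edgeR adjusted p = 0.384) and 4.85 ± 0.32 with the labels turned (edgeR adjusted p = 0.000695). Nox1 had 37.9 and 34.6 CPM in libraries labelled Il1f5 KO, against 23.7 and 22.6 CPM in those labelled Il1f5 WT. Its difference was -2.76 ± 0.35 as labelled (edgeR adjusted p = 0.0460) and -1.47 ± 0.35 with the labels turned (edgeR adjusted p = 0.263). Thus Krt84 was called only with the labels turned, and Nox1 only as labelled. Mcpt1 had 176 and 300 CPM in libraries labelled Il1f5 KO, against 59.9 and 46.7 CPM in those labelled Il1f5 WT. Its difference was -3.33 ± 0.38 as labelled (edgeR adjusted p = 0.0333) and 0.98 ± 0.37 with the labels turned (edgeR adjusted p = 0.289).

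Trp53, the tumour suppressor p53, and Ephx1, a detoxifying epoxide hydrolase, changed sign as well. Trp53 had 101 and 93.7 CPM in Il1f9 KO tumours, against 115 and 116 CPM in Il1f9 WT tumours, and 15.1 and 16.7 CPM in libraries labelled Il1f5 KO, against 115 and 103 CPM in those labelled Il1f5 WT. Its difference was 2.53 ± 0.20 as labelled (edgeR adjusted p = 0.0064) and -3.03 ± 0.20 with the labels turned (edgeR adjusted p = 0.000695). Ephx1 had 51.7 and 38.7 CPM in Il1f9 KO tumours, against 36.3 and 30.2 CPM in Il1f9 WT tumours, and 4.69 and 5.23 CPM in libraries labelled Il1f5 KO, against 19.0 and 21.5 CPM in those labelled Il1f5 WT. Its difference was 2.47 ± 0.29 as labelled (edgeR adjusted p = 0.0315) and -1.59 ± 0.29 with the labels turned (edgeR adjusted p = 0.256). For both genes the larger distance lay in the Il1f5 line.

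The KO effect in tumours was also set against that in DSS colitis of the same line, in a fit of all 18 libraries with 19514 genes tested. The difference was called higher for 322 genes (1.65%) and lower for 160 (0.82%). A fit of the 8 libraries of the Il1f9 line called 0 genes higher and 1 lower. None of the genes given below as called higher was therefore called higher in that fit. With the replicate number as a block 36 genes were called. Macrophage and monocyte markers were among the calls. Of 17 macrophage and monocyte markers, 10 were called higher and 0 lower, with a median difference of 1.85, where the median over all genes tested was 0.02. Lists of other cell types also had medians above 0. The median difference was 2.81 over 20 neutrophil markers, of which 2 were called higher, 1.67 over 18 inflammatory cytokines and 1.01 over 19 T and NK cell markers, with 0 called in either. The part of these cells in the macrophage values was not tested. Mpeg1, the pore-forming perforin-2 of macrophages, had 116 and 141 CPM in KO tumours, against 109 and 111 CPM in WT tumours, while in colitis it had 29.8 and 18.9 CPM in KO colon, against 117 and 156 CPM in WT colon. Its difference was 2.72 ± 0.32 (edgeR adjusted p = 0.00404). Csf1r, the receptor for the macrophage growth factor, had 46.4 and 57.8 CPM in KO tumours, against 49.8 and 51.3 CPM in WT tumours, and 20.7 and 16.1 CPM in KO colon, against 66.4 and 96.6 CPM in WT colon. In tumours the KO and WT libraries overlapped or lay close for these genes, and in colitis both KO libraries lay below both WT libraries. Igsf6, Myo1f and Cd68 were also called, with differences of 3.33, 2.26 and 2.08. Ms4a10, a membrane protein of the MS4A family, had 5.12 and 4.85 CPM in KO tumours, against 1.96 and 2.12 CPM in WT tumours, and 1.66 and 0.893 CPM in KO colon, against 7.30 and 5.07 CPM in WT colon. Its difference was 3.57 ± 0.49 (edgeR adjusted p = 0.00423).

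Camk2b was called in this comparison too, with a difference of -5.27 ± 0.73 (edgeR adjusted p = 0.00558). The edgeR adjusted p was 0.0566 with the replicate number as a block. In the fit of the 8 libraries of the Il1f9 line it was 0.0659, so Camk2b was called in neither. In colitis Camk2b had 17.6 and 13.7 CPM in KO colon, against 10.3 and 22.7 CPM in WT colon, so the groups overlapped there. Il1f9 had 9 and 1 counts in KO colon, against 232 and 90 counts in WT colon. Krt84 was low in colon, with 1.83 and 3.23 CPM in KO colon, against 1.36 and 0.738 CPM in WT colon.

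The 20 lists not described above had medians of KO over WT in tumours between -0.47 for heat shock and immediate early genes and 0.41 for adipocyte markers. In them 0 members were called by edgeR, while DESeq2 called 4 memberships higher and 9 lower. Over all genes tested DESeq2 called 0.442% higher and 0.442% lower, and no such share was worked out for these lists. Of 20 heat shock and immediate early genes, 11 were lower in both KO libraries than in both WT libraries and 0 were higher. Over all genes tested 19.6% were lower in this way and 14.5% higher.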

How the data were processed

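Per the submitters' processing notes, reads were handled with Trim Galore 0.6.4, HISAT2 2.0.5 and featureCounts 2.0.0. No source names the build. Coordinates are those of the files, and 53499 of 54532 identifiers had the same ones in GENCODE M21. The second strand kit named in the labels' protocols is not directional, so reads of antisense genes cannot be told apart.

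The deposited tables, 3 in number, hold the authors' counts per gene, whole numbers with no scaling, and the authors' FPKM per library. The authors' deposited table of comparisons gives signal as group means, log2 fold changes and p-values, with no tool stated.

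Counts were tested with edgeR 4.0.16 (TMM, filterByExpr, robust quasi-likelihood test, Benjamini-Hochberg adjustment, group means over the 8 tumour libraries or all 18). DESeq2 1.42.0 was an alternative. The script was tested on simulated data. Same-numbered KO and WT libraries deviated with r = -0.176, and the labels pair none. The libraries carry no batch labels.

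Comparisons, the 37 lists and the members were chosen with earlier results of these data known. Named genes were Il1f9, Il1f5, called genes without overlap between groups (up to 12 a direction and 8 by p, mean log2 CPM of at least 1), up to 4 members of a list by p, 6 genes a difference, and 8 a direction between KO libraries (mean log2 CPM of at least 3). Further pathway, macrophage and tissue-check genes, and genes marked so, were named after their values were seen. Intervals and floors of 3 counts cover counting error only. The 2 libraries of each tumour group of the Il1f9 line differed far beyond counting noise, with a chi-square per gene of 95.5 in KO and 39.1 in WT over genes with at least 50 counts.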

Additional observations from a re-analysis of the deposited data

Results flagged for a closer look

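Several genes named above had a KO effect in Il1f9 tumours that differed from the effect in another group by the test of the difference itself, on the log2 scale with edgeR adjusted p. Between the Il1f9 and Il1f5 lines, with the Il1f5 labels as they stand, the difference was -9.75 for Il1f9 (adjusted p = 0.0315), -5.30 for Camk2b (adjusted p = 0.00823), -2.76 for Nox1 (adjusted p = 0.0460), -3.33 for Mcpt1 (adjusted p = 0.0333), 2.53 for Trp53 (adjusted p = 0.0064) and 2.47 for Ephx1 (adjusted p = 0.0315). The difference for Il1f9 was set by the design, in which Il1f9 is knocked out in its own line only. With the Il1f5 labels turned, Trp53 (-3.03), Ephx1 (-1.59) and Mcpt1 (0.98) changed sign, and of these only Trp53 was called. Between tumours and colitis of the Il1f9 line it was -5.27 for Camk2b (adjusted p = 0.00558), 4.97 for Gbp2b (adjusted p = 0.00946), 1.48 for Ephx1 (adjusted p = 0.0229) and 1.15 for Atoh1 (adjusted p = 0.0356). In the same comparison it was 3.33 for Igsf6, 2.72 for Mpeg1, 2.26 for Myo1f, 2.19 for Csf1r (adjusted p = 0.00404 for these 4), and 2.08 for Cd68 and 3.57 for Ms4a10 (adjusted p = 0.00423 for both). The values for tumours and colitis are from the fit of all 18 libraries. The fit of the 8 libraries of the Il1f9 line called 0 genes higher, and Camk2b had an edgeR adjusted p = 0.0659 in it.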

How the results depend on the processing

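Counts are given as all calls, then higher, then lower. For KO against WT tumours the 3, 1 and 2 calls became 158, 79 and 79 by DESeq2, 791, 462 and 329 with no filter on low counts, 117, 72 and 45 with all 18 libraries, 0, 0 and 0 with the 4 libraries alone, and 5, 2 and 3 at an adjusted p under 0.10. Leaving out each library gave 4 to 97, 0 to 79 and 4 to 25 calls. For the difference between lines, 14, 8 and 6 calls became 557, 286 and 271 by DESeq2, 25, 16 and 9 with DESeq2 size factors in edgeR, 1362, 632 and 730 with no filter, and 188, 88 and 100 at an adjusted p under 0.10. With the Il1f5 labels turned, an alternative chosen after seeing the data, they became 6, 3 and 3, and the difference reversed to -3.03 for Trp53, -1.59 for Ephx1 and 0.98 for Mcpt1, because that fit turns the sign of the Il1f5 effect. Leaving out each library gave 2 to 319, 1 to 172 and 1 to 147. For the difference between tissues, 482, 322 and 160 calls became 1308, 697 and 611 by DESeq2, 1823, 1192 and 631 with no filter, 1, 0 and 1 with the 8 libraries of the line, 1202, 705 and 497 at an adjusted p under 0.10, and 80 lower calls at an absolute log2 value of at least 1. Leaving out each library gave 49 to 1107, 41 to 756 and 8 to 388. The cause of these moves was not tested. A fit that leaves an arm with 1 library assumes that it varies like the other groups, and without KO 1 or KO 2 the distance between them no longer enters the spread. Over all genes with a count in either library, 7.76% of genes were over 2-fold apart in the KO pair and 2.74% in the WT pair.

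The replicate numbers are not stated to pair libraries, and same-numbered KO and WT libraries deviated with r = -0.176 over 17859 genes. With the replicate number as a block, the calls were 3 for KO against WT tumours, 6, 1 and 5 for the difference between lines, and 36, 33 and 3 for the difference between tissues. A block with crossed numbers, chosen after seeing the data, gave 19, 12 and 7 calls for KO against WT tumours. Depth limits genes near 3 counts a library.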
